A study of Mus musculus with 78 samples.

Results

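Cerebral arteries of male wild-type C57Bl6 mice that had eaten freely were compared 7 days after bilateral carotid artery stenosis (BCAS) or a sham operation. The comparison held 8 of the 78 RNA-seq libraries of the series, 4 labelled BCAS7AL and 4 labelled SHAM7AL, and they were chosen by these labels and not by a measured value. Both groups had fed ad libitum (AL) for 3 months before the operation, were labelled as genotype WT and carried no other allele or agent in the labels. Set beside them were the 16 sham AL libraries of days 1, 14, 21 and 30, and the 4 BCAS and 3 sham libraries of day 7 from mice on intermittent fasting (IF). The series as a whole crossed diet, operation and day. Day 7 rests on the group labels alone, since the protocol text names the other 4 days and the design text counts 4 time points. The age of the mice, the arteries taken and whether a library held 1 animal or several are unstated in the labels and protocols used. P-values therefore measured the spread between libraries within a group, pooled over the 20 groups of all 78 libraries, and that spread may be technical.

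BCAS narrows both common carotid arteries and lowers blood flow to the brain for weeks, and it is used as a model of chronic cerebral hypoperfusion. The wall of a cerebral artery holds an endothelium that senses flow, contractile smooth muscle that sets the diameter, and fibroblasts and resident macrophages outside it. Dissected arteries can also carry blood, leptomeninges and attached brain tissue, so marker lists of those cells are reported as well.

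Several of the largest falls lay in non-coding loci, and the annotated sequences of some of these are given here. They were compared with GENCODE M21 transcripts only, and which RNA gave the fragments was not tested. Gm23935 (ENSMUSG00000076258, chr16:11144125-11144181 on GRCm38, plus strand) and Gm24270 (ENSMUSG00000076281, chr9:56223715-56223771, minus strand) are listed as miRNA genes of 57 bases. Their GENCODE M21 transcripts are identical letter for letter, another gene, Gm24245, holds the same transcript, and 73.7% of its bases are G or C. Fragments that lie wholly within these 57 bases cannot be told apart by sequence, and how they were assigned to a copy is not given in the sources used. Rn7sk (ENSMUSG00000065037, chr9:78175303-78175633, minus strand) encodes the 7SK RNA, a nuclear RNA that holds the elongation factor P-TEFb inactive, and its last 60 bases are shown with the final run of T in capitals, the kind of run at which RNA polymerase III stops. Mir378b was counted over its hairpin at chr11:88352773-88352864, and the RefSeq mature sequence on GRCm38.p6 is shown with its seed, bases 2 to 8, in capitals.
Gm23935, Gm24270 and Gm24245: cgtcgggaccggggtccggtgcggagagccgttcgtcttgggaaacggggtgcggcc
Rn7sk, last 60 bases: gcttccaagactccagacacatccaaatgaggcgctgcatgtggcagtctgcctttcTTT
mmu-miR-378b: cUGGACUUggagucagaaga

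Depth, recovered from the step between values, was 18644636, 15193955, 22010857 and 14601572 fragments in sham replicates 1 to 4 and 18978029 to 21651437 in the BCAS libraries. Genes under 300 bases held 0.0960, 0.282, 0.0878 and 0.322% of fragments in sham replicates 1 to 4 and 0.0570% to 0.0702% in BCAS. The 16 sham AL libraries of other days held 0.0571% to 0.0869%, so all 4 sham libraries of day 7 were above them, replicates 2 and 4 furthest. Sham replicate 4 also had the lowest median correlation with the other libraries of all 78 (0.939). Its smooth muscle transcripts were low, with Acta2 (smooth muscle actin) at 4607, 4543, 4956 and 1757 FPKM in sham replicates 1 to 4 and 2598 to 4899 FPKM in BCAS. Defining artery markers were present in all 8 libraries: Acta2, Myh11 and the endothelial genes Pecam1 and Cldn5. FPKM are fragments per kilobase of gene scaled to depth.

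In the limma fit on log2(FPKM + 1), 413 of 15707 genes passed an adjusted p of 0.05, which is 2.63% of those tested. After BCAS 258 of them were higher (1.64%) and 155 lower (0.987%). A change of more than 1.5-fold was seen in 46 of the rises and 38 of the falls. The BCAS and sham libraries did not overlap for 205 of the 413 genes, 118 higher and 87 lower, against 4.74% of all genes tested. The called genes differed in length, with a median of 2039.5 bases for rises and 6379 bases for falls, against 3398 bases over all genes. Most coded for protein (358 of 413). The 5 largest falls were those of Rn7sk, Gm10800, CT010467.1, Gm23935 and Gm24270, of which Gm10800 is annotated as protein-coding.

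The 4 sham libraries did not contribute alike. Sham replicate 1 lay below all 4 BCAS libraries for 137 of the 258 rises, and replicates 2, 3 and 4 did so for 231, 234 and 252. Among the 155 falls, the same replicates lay above all BCAS libraries for 115, 139, 134 and 149. With replicates 1 and 3 as the only controls 72 genes passed (0.458% of genes tested), 20 higher and 52 lower, and 28 of the 413 were among them. With replicates 2 and 4 alone 3049 passed. A single sham library as control, whose spread is then assumed to equal that of the other groups, gave 18 genes with replicate 1 (none higher, with 1122 in either direction at an unadjusted p under 0.05), 341 with replicate 2, 125 with replicate 3 and 4858 with replicate 4. Calls made against all 4 single controls were limited to Malat1, and H1fx, Degs1, S100a13 and Gm44836 were called against 3 of them, each time all but replicate 1. Leaving out sham replicate 1 raised the count to 1750 and leaving out sham replicate 4 lowered it to 67. Without BCAS replicates 1, 2, 3 and 4 in turn it was 660, 45, 200 and 91, and the fit of the 8 libraries alone gave 0 (1175 at an unadjusted p under 0.05, limma).

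**Figure D1:**
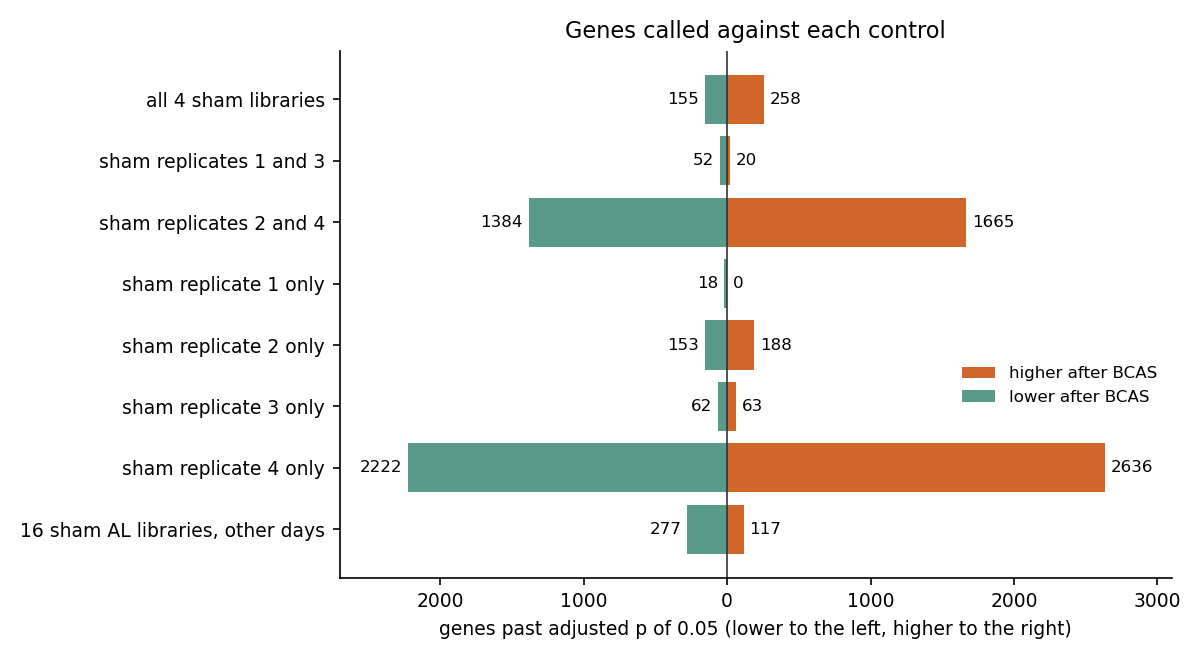
Number of genes past an adjusted p of 0.05 for the BCAS AL libraries of day 7 against 8 choices of control, with genes lower after BCAS to the left and higher to the right of 0. The bars run from 18 genes against sham replicate 1 to 4858 against sham replicate 4, and rises outnumber falls against all 4 sham libraries but not against replicates 1 and 3 or against the sham libraries of other days.

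Malat1 fell against every one of the 4 sham libraries. This long nuclear non-coding RNA (ENSMUSG00000092341, chr19:5795690-5802672) was at 48.2, 82.2, 67.3 and 79.9 FPKM in sham replicates 1 to 4 and at 21.9, 27.6, 15.4 and 22.9 FPKM in BCAS replicates 1 to 4. Every sham library was above every BCAS library. Against sham replicates 1, 2, 3 and 4 singly the adjusted p was 0.0354, 1.23e-06, 9.95e-05 and 1.55e-07. The fall was 1.61 ± 0.17 on the log2(FPKM + 1) scale (SE, adjusted p = 6.34e-10), or 3.06-fold, and it passed with replicates 1 and 3 as the only controls (-1.36, adjusted p = 1.58e-05). The sham AL libraries of other days had 14.3 to 38.1 FPKM, so the BCAS values lay inside that range and the 4 sham values of day 7 above it. Against those other sham libraries the difference was -0.04 (adjusted p = 0.941).

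A locus annotated as ribosomal RNA and its neighbour were lower in BCAS than in the sham libraries of day 7. CT010467.1 (ENSMUSG00000106106, an rRNA gene at chr17:39846353-39848827) was at 213, 1335, 186 and 1187 FPKM in sham replicates 1 to 4 and at 40.6, 27.2, 30.8 and 23.3 FPKM in BCAS replicates 1 to 4. It fell by 4.02 ± 0.51 (adjusted p = 6.75e-07) and still did with sham replicates 1 and 3 alone (-2.70, adjusted p = 0.00898). Of its 31-base words 70.4% also occur in Gm42418, which overlaps it and is listed at 0 in all libraries. Gm26917, a long intergenic RNA next to it on chromosome 17 (chr17:39843013-39846341), fell by 1.30 ± 0.24, with 28.9, 107, 33.3 and 47.4 FPKM in sham and 25.0, 14.7, 23.8 and 13.4 FPKM in BCAS. With sham replicates 1 and 3 alone the Gm26917 difference was -0.71 and missed the threshold (adjusted p = 0.207). Sham replicates 2 and 4 were the high libraries at both loci, most of all at CT010467.1. Relative to the sham libraries of other days, BCAS differed by -0.33 at CT010467.1 and 0.18 at Gm26917 (adjusted p = 0.779 and 0.735). The sham group of day 7 exceeded those of other days by 3.69 at CT010467.1 and 1.48 at Gm26917.

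Gm23935, the 57-base locus shown above, held most of the short-gene fragments of sham replicates 2 and 4. It was at 7958, 39898, 7157 and 41564 FPKM in sham replicates 1 to 4 and at 2403, 2495, 2936 and 1451 FPKM in BCAS replicates 1 to 4. In fragments these were 8517, 35470, 9341 and 38701 in sham and 2864, 3120, 3269 and 1673 in BCAS. The fall of 2.96 ± 0.44 (adjusted p = 3.06e-05) kept its direction but not its call with sham replicates 1 and 3 alone (-1.75, adjusted p = 0.0754). Relative to the sham libraries of other days, Gm23935 differed by -0.28 (adjusted p = 0.790). Its copy Gm24270 fell by 2.66 ± 0.51 with 164, 809.9, 98.8 and 738 FPKM in sham and 35.2, 72.8, 60.2 and 36.4 FPKM in BCAS, and Gm24245 had no fragment in any of the 8 libraries. Without Gm23935 and Gm24270, genes under 300 bases held 0.0436% to 0.0522% of fragments in sham and 0.0457% to 0.0554% in BCAS, ranges that overlap.

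Rn7sk had the largest fitted fall, 4.73 ± 0.72 (adjusted p = 3.8e-05). This SE, like those of the loci above, rests on the spread pooled over the 20 groups. With only the 8 libraries fitted, the adjusted p of Rn7sk was 0.528. Rn7sk was at 13.03, 198, 11.2 and 343 FPKM in sham replicates 1 to 4 and at 0, 2.34, 1.70 and 1.64 FPKM in BCAS replicates 1 to 4, and BCAS replicate 1 had no fragment of it. Of its 31-base words 72.8% occur in transcripts of other genes, with 70.1% in Gm24447, so its level is uncertain. The 2 high sham libraries were again replicates 2 and 4, while replicates 1 and 3 lay just above the highest value of the 16 other sham libraries (9.81 FPKM). With replicates 1 and 3 alone the difference was -2.57 (adjusted p = 0.0922), and relative to the sham libraries of other days it was -0.16 (adjusted p = 0.941). Gm10800 (chr2:98666547-98667301, annotated as protein-coding), for which 42.0% of 31-base words occur in other genes, rested on sham replicate 4, with 5.49, 5.73, 22.2 and 2850.4 FPKM in sham and 0.290, 2.62, 0.388 and 0.674 FPKM in BCAS, and lost its call without that library. The related Gm21738 reached 93.8 FPKM in sham replicate 4 and at most 1.54 FPKM in the other 7 libraries. Mir378b passed on few fragments, 1, 11, 4 and 0 in sham and 0, 0, 0 and 1 in BCAS, and a single fragment separated some of these libraries.

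Lars2, the gene of the mitochondrial leucyl-tRNA synthetase (ENSMUSG00000035202, chr9:123366927-123462666), fell as these loci did. It was at 12.6, 66.0, 11.7 and 41.7 FPKM in sham replicates 1 to 4 and at 3.64, 3.48, 3.56 and 2.61 FPKM in BCAS replicates 1 to 4. The difference was -2.62 ± 0.36 (adjusted p = 2.84e-06), and -1.61 with sham replicates 1 and 3 alone (adjusted p = 0.0269). Relative to the sham libraries of other days, Lars2 differed by -0.13 (adjusted p = 0.903). None of the other 16 mitochondrial tRNA synthetase genes passed, and the median of all 17 was 0.01. Of the 31-base words of Lars2 0.923% occur in a GENCODE M21 transcript of another gene, and no other sequences were searched. Both mitochondrial rRNA genes fell too, mt-Rnr2 by 0.78 ± 0.17 with 643, 870.3, 559 and 592 FPKM in sham and 301, 401, 451 and 389 FPKM in BCAS, and mt-Rnr1 by 0.61 ± 0.16 with 1053, 1433, 1046 and 794 FPKM in sham and 565, 773, 721 and 725 FPKM in BCAS. The highest sham library for both was replicate 2. Neither passed with sham replicates 1 and 3 alone (adjusted p = 0.127 and 0.121), and the call of mt-Rnr1 was lost without sham replicate 2 or without BCAS replicate 1, 2 or 4. None of the 13 protein genes of the mitochondrial genome passed (median -0.04, median over all genes tested 0.01).

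**Figure D2:**
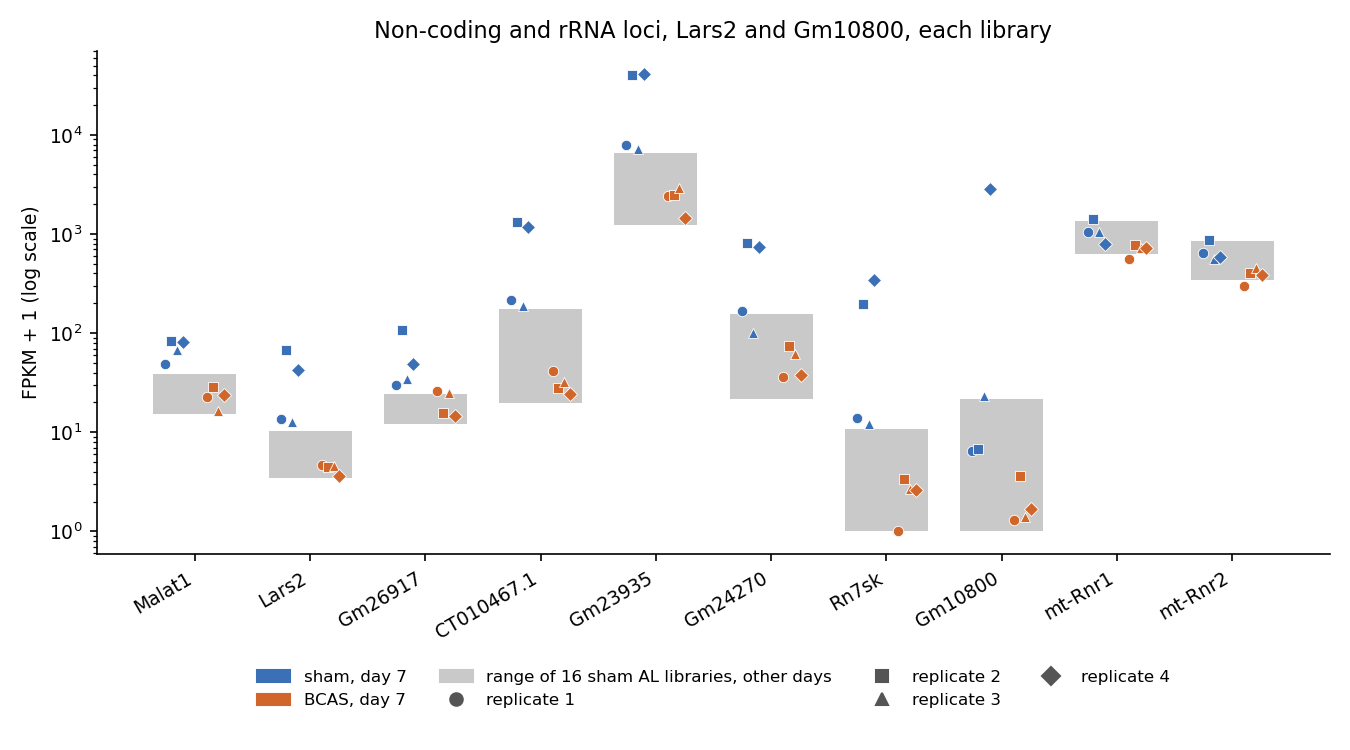
FPKM + 1 on a log scale for 10 loci, with the 4 sham (blue) and 4 BCAS (orange) libraries of day 7 as points shaped by replicate and the range of the 16 sham AL libraries of other days as a grey box. BCAS points lie in or near the box for most loci, and sham replicates 2 (squares) and 4 (diamonds) lie above it for Malat1, Lars2, Gm26917, CT010467.1, Gm23935, Gm24270 and Rn7sk.

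Against sham replicates 1 and 3 and against replicates 2 and 4, 12 genes passed in both, 6 higher (H1fx, Acsl5, Leprot, Degs1, Tmem88 and Ctsh) and 6 lower (Malat1, CT010467.1, Lars2, Aatk, Mir378b and Cdk5r2). Acsl5, which activates long-chain fatty acids (ENSMUSG00000024981, chr19:55251938-55297720), was at 7.71, 7.41, 7.20 and 7.43 FPKM in sham replicates 1 to 4 and at 10.6, 9.79, 9.71 and 10.2 FPKM in BCAS replicates 1 to 4. It rose by 0.39 ± 0.076 (adjusted p = 0.00284), and the change was 0.39 with sham replicates 1 and 3 (adjusted p = 0.0363) and 0.23 against the sham libraries of other days (adjusted p = 0.0213). The groups did not overlap, and the call held without any 1 of the 8 libraries. Degs1, the dihydroceramide desaturase of sphingolipid synthesis, rose by 0.22 ± 0.045 with 40.2, 37.3, 37.5 and 39.95 FPKM in sham and 44.6, 44.2, 45.7 and 46.8 FPKM in BCAS. Leprot, whose product limits growth hormone and leptin receptors at the cell surface, rose by 0.22 ± 0.043 with 58.4, 54.9, 53.03 and 54.6 FPKM in sham and 65.7, 62.4, 64.0 and 66.0 FPKM in BCAS. Both held with sham replicates 1 and 3 (adjusted p = 0.0457 and 0.0428) but not against the sham libraries of other days (adjusted p = 0.403 and 0.068).

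H1fx, a linker histone gene (ENSMUSG00000044927, chr6:87980421-87981637), had the largest of these shared rises, 0.88 ± 0.15 (adjusted p = 0.000799). Its values were 3.98, 2.58, 2.15 and 2.11 FPKM in sham and 5.15, 5.81, 4.58 and 7.60 FPKM in BCAS. The lowest BCAS library stood above the highest sham library, replicate 1, and the sham libraries of other days had 2.93 to 5.94 FPKM, a range that holds 3 of the 4 BCAS values. Tmem88, which encodes a membrane inhibitor of Wnt signalling, rose by 0.79 ± 0.18 with 11.5, 16.6, 10.2 and 10.8 FPKM in sham and 17.2, 22.2, 23.4 and 23.8 FPKM in BCAS. The call of Tmem88 was lost without sham replicate 4 or BCAS replicate 2. Ctsh, a lysosomal cathepsin gene, rose by 0.24 ± 0.06 with 46.1, 51.5, 44.0 and 44.6 FPKM in sham and 53.6, 57.9, 56.3 and 52.6 FPKM in BCAS, and lost its call without sham replicate 4 or without BCAS replicate 2 or 3.

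Further rises stayed past the threshold whichever library was left out, and are named here after their values were seen. Ctsz, a lysosomal carboxypeptidase gene, was at 159.9, 155, 154 and 127 FPKM in sham replicates 1 to 4 and at 194, 213, 178 and 186 FPKM in BCAS replicates 1 to 4, a rise of 0.37 ± 0.068 (adjusted p = 0.0017). Tmem50a rose by 0.34 ± 0.06 with 139, 141, 153 and 115 FPKM in sham and 170.1, 176, 165 and 182 FPKM in BCAS. Rpn2, a subunit of the oligosaccharyltransferase that glycosylates new proteins, rose by 0.23 ± 0.043 with 64.3, 58.2, 60.5 and 58.7 FPKM in sham and 67.8, 69.7, 76.0 and 70.1 FPKM in BCAS. In all 3 every sham library was below every BCAS library. Adprh, which removes ADP-ribose from proteins, rose by 0.29 ± 0.054, and C1qtnf2, of the C1q and TNF-related secreted proteins, by 0.46 ± 0.091 with 51.3, 44.3, 54.3 and 44.5 FPKM in sham and 63.6, 71.4, 68.0 and 65.3 FPKM in BCAS. In all, 23 of the 413 calls stayed past the threshold in each of these 8 fits, 12 higher and 11 lower. With sham replicates 1 and 3 alone the adjusted p of Ctsz, Tmem50a, Rpn2, Adprh and C1qtnf2 was 0.0707, 0.0764, 0.08, 0.137 and 0.153, and against the sham libraries of other days it was above 0.05 for each.

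Klk10 and Ptp4a3 are genes that earlier results of these data had already put among those raised by BCAS across days. Klk10, a kallikrein-related peptidase gene, was at 3.76, 3.22, 3.75 and 3.34 FPKM in sham replicates 1 to 4 and at 8.33, 8.96, 6.64 and 6.70 FPKM in BCAS replicates 1 to 4, a rise of 0.93 ± 0.22 (adjusted p = 0.0145). Its sham values were close together, and the rise was 0.81 against the sham libraries of other days (adjusted p = 0.00353) and 0.85 with sham replicates 1 and 3 alone (adjusted p = 0.144). Ptp4a3, a protein tyrosine phosphatase gene, rose by 0.61 ± 0.14 with 15.8, 16.8, 15.7 and 10.3 FPKM in sham and 25.2, 19.7, 20.3 and 26.0 FPKM in BCAS. Sham replicate 4 was far below the other 3. The call of Klk10 was lost without sham replicate 4 or BCAS replicate 2, and that of Ptp4a3 without sham replicate 4 or BCAS replicate 4. The other 7 genes of that list did not pass against the sham libraries of day 7: Crispld2 (0.31 ± 0.12), Wisp2 (0.62 ± 0.25), Pi15 (0.41 ± 0.21), Baiap2l2 (-0.67 ± 0.20, adjusted p = 0.0519), Cck (-0.83 ± 0.26), 2210407C18Rik (-0.63 ± 0.28) and Fbxl22 (-0.40 ± 0.22). Against the sham libraries of other days, Crispld2 (0.40, adjusted p = 0.00861) passed as higher. Baiap2l2 (-0.97, adjusted p = 0.000259), 2210407C18Rik (-1.12, adjusted p = 0.00192) and Fbxl22 (-0.86, adjusted p = 0.00251) passed as lower. Ptp4a3 (0.33, adjusted p = 0.0827), Wisp2 (0.26), Pi15 (0.23) and Cck (-0.60) did not pass against that control.

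**Figure D3:**
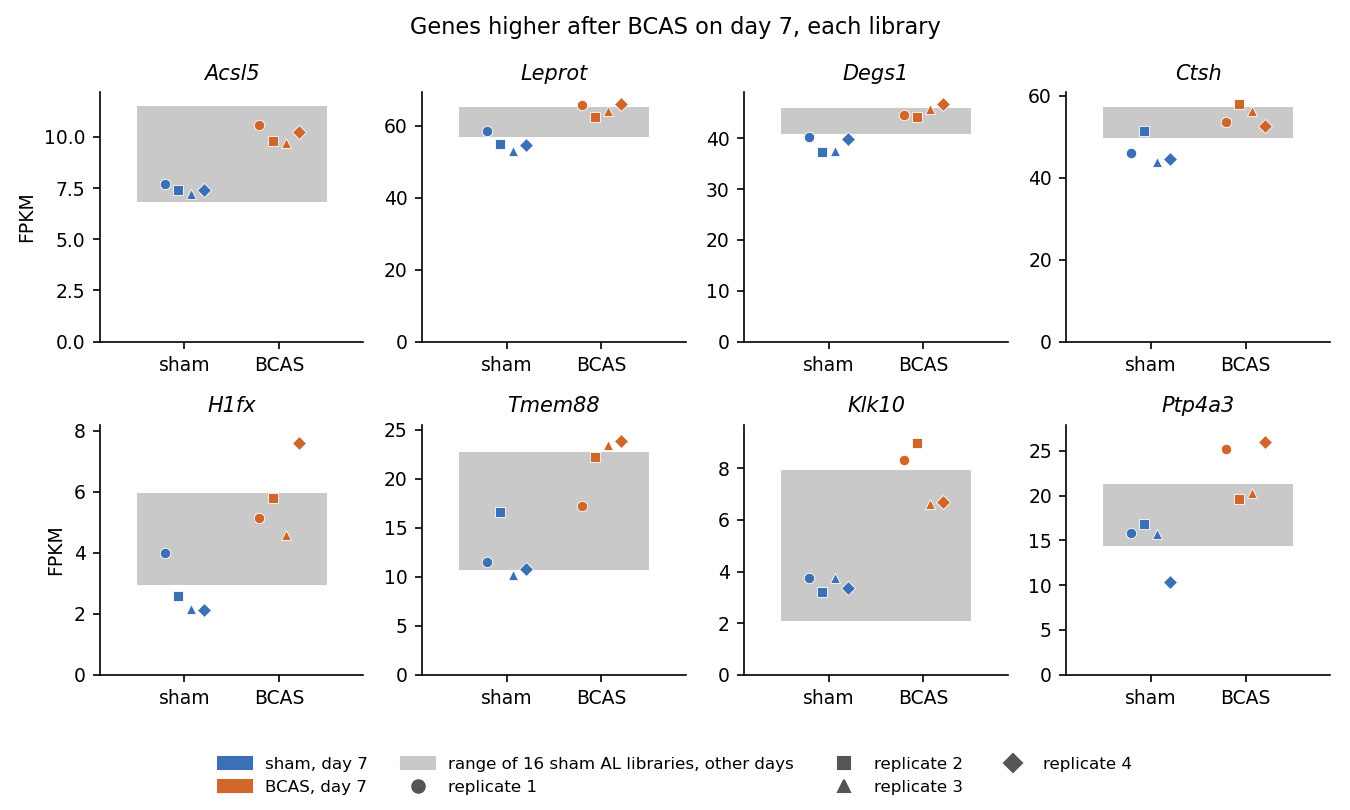
FPKM of 8 genes higher after BCAS on day 7, with the 4 sham (blue) and 4 BCAS (orange) libraries as points shaped by replicate and the range of the 16 sham AL libraries of other days as a grey box; each axis starts at 0. The groups do not overlap for any of the 8 genes, the sham points lie below the lower edge of the box for Degs1, and the Klk10 sham points lie inside it.

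Among rises whose groups did not overlap, several of the 10 largest were in low or copied transcripts. Gm25982, an snRNA gene, had 0 fragments in each sham library and 4, 6, 2 and 3 in the BCAS libraries, so its fitted change of 1.43 depends on the pseudocount and no fold is given. Gm15610 and Gm5425 are processed pseudogenes that share 58.8% and 46.4% of their 31-base words with Tma7 and Nme2, so their reads may belong to those genes. Gm5425 was at 8.70, 5.59, 6.56 and 4.80 FPKM in sham and 10.8, 35.1, 9.03 and 9.69 FPKM in BCAS, with BCAS replicate 2 far above the rest. Gm15972, an antisense gene whose reads cannot be told from those of the opposite strand unless strand was used, rose by 1.30 ± 0.29 with 1.15, 0.614, 0.209 and 0.586 FPKM in sham and 2.86, 3.60, 2.57 and 2.84 FPKM in BCAS. Leap2, an antimicrobial peptide and ghrelin receptor ligand, had 2, 0, 3 and 0 fragments in sham and 18, 9, 6 and 19 in BCAS. Pebp4 rose by 0.84 ± 0.21 with 1.78, 1.49, 1.21 and 0.511 FPKM in sham and 2.39, 3.84, 2.47 and 3.21 FPKM in BCAS. Larger fitted rises whose groups overlapped, chosen after their values were seen, were those of the small nucleolar RNA Snord7 (1.99 ± 0.53), with 6.59, 0, 17.1 and 0 FPKM in sham and 13.3, 23.0, 6.33 and 12.7 FPKM in BCAS, and of Lsm5 (1.54 ± 0.38), a subunit of the ring that binds U6 RNA, with 7.73, 0.567, 12.2 and 0.464 FPKM in sham and 8.03, 13.2, 9.05 and 13.8 FPKM in BCAS. Sham replicates 2 and 4 were the low libraries for both, and neither passed with replicates 1 and 3 alone (adjusted p = 0.93 and 0.936).

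Several genes that macrophages and microglia express rose. In bulk arteries, fewer cells of a type and less RNA per cell cannot be told apart. Tyrobp, the signalling adaptor of myeloid receptors, was chosen after its values were seen. It was at 69.4, 46.7, 55.5 and 42.9 FPKM in sham replicates 1 to 4 and at 87.8, 86.4, 79.9 and 89.0 FPKM in BCAS replicates 1 to 4. It rose by 0.69 ± 0.13 (adjusted p = 0.00284), the call held without any 1 of the 8 libraries, and the value with sham replicates 1 and 3 alone was 0.46 (adjusted p = 0.193). Cd68, a lysosomal protein of macrophages, rose by 0.50 ± 0.12 with 17.0, 20.1, 20.6 and 16.5 FPKM in sham and 29.3, 25.0, 23.5 and 28.3 FPKM in BCAS. The complement genes C1qa and C1qc, which encode chains of the first component, rose by 0.43 ± 0.12 and 0.44 ± 0.13, with C1qa at 199, 163, 228 and 178 FPKM in sham and 254, 269, 248 and 256 FPKM in BCAS. With sham replicates 1 and 3 alone the differences of C1qa and C1qc were 0.27 and 0.22 (adjusted p = 0.492 and 0.605), and both calls were lost without sham replicate 2 or 4 or BCAS replicate 2, 3 or 4. The call of Cd68 was lost without sham replicate 4 or BCAS replicate 2 or 4. Bcl2a1d, of the anti-apoptotic Bcl2a1 family, rose by 0.89 ± 0.25, but 89.1% of its 31-base words occur in its near-identical copies and its level is uncertain. The lowest library was sham replicate 4 for Tyrobp, Cd68 and C1qc and sham replicate 2 for C1qa.

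Most markers of these cells did not pass. Of 11 border macrophage markers only Cd68 rose, with a list median of 0.13, and none of 8 microglia markers passed (median 0.08), Tmem119 having the smallest p (0.22 ± 0.092). The mean log2(FPKM + 1) of the microglia list was 2.92, 2.92, 3.12 and 3.43 in sham replicates 1 to 4 and 3.14 to 3.27 in BCAS. For the border macrophage list it was 3.39, 3.51, 3.61 and 3.69 in sham and 3.61 to 3.89 in BCAS, so both lists overlapped between the groups. Of 15 complement genes 2 rose (median 0.21). Further rises chosen after their values were seen were those of Gngt2 (0.58 ± 0.11), Lrrc25 (0.69 ± 0.15), Aif1 (0.53 ± 0.16) and the purinergic receptor gene P2ry13 (0.50 ± 0.15). Of these P2ry13 also passed against the sham libraries of other days (0.48, adjusted p = 0.0114), and Tyrobp, Cd68, C1qa, C1qc, Gngt2, Lrrc25 and Aif1 did not.

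Other immune lists gave 1 call among them. None of 10 neutrophil and monocyte genes (median -0.27), 7 lymphocyte genes (0.19), 16 interferon-response genes (0.25), 9 antigen presentation genes (0.24) or 15 chemokine and adhesion genes (0.16) passed. The chemokine gene Ccl5 came nearest with 0.93 ± 0.30 (adjusted p = 0.0678), at 3.61, 3.61, 9.19 and 2.17 FPKM in sham and 8.77, 8.74, 8.26 and 9.17 FPKM in BCAS. Bcl2a1d was the single rise among 12 inflammatory and acute phase genes, whose median was 0.28. Il1b, the interleukin-1 beta gene, was at 0.419, 1.65, 0.756 and 0.867 FPKM in sham and 0.451, 0.741, 0.456 and 0.441 FPKM in BCAS (adjusted p = 0.299). The surface antigen genes Ly6a (0.74 ± 0.17), Ly6c1 (0.61 ± 0.16) and Ly6e (0.46 ± 0.12) and the interferon-induced Ifitm3 (0.60 ± 0.14) rose, and were chosen after their values were seen. Ly6a, which endothelium expresses in the brain, was at 203, 187, 214 and 137 FPKM in sham and 318, 264, 299 and 348 FPKM in BCAS, lowest in sham replicate 4, and none of these 4 passed with sham replicates 1 and 3 alone.

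Genes of the ribosome, which translates mRNA, and of the respiratory chain had mostly positive differences, and few of them passed. Among 81 cytosolic ribosomal protein genes there were 15 rises and no falls, and 66 missed the threshold, with a positive difference in 80 and a median of 0.32 against 0.01 over all genes tested. The rises were 18.5% of the list, beside 1.64% of all genes tested. Under quantile normalisation the median was 0.17. Rps13 was at 124, 73.6, 87.2 and 64.6 FPKM in sham and 102, 143, 132 and 141 FPKM in BCAS, a rise of 0.59 ± 0.13 (adjusted p = 0.00915), and Rps16 rose by 0.46 ± 0.11. Many ribosomal protein genes have processed pseudogenes, and 39.1% of the 31-base words of Rps16 occur in other genes, so single levels are uncertain. Sham replicate 1 was not low: the mean log2(FPKM + 1) of the list was 7.87, 7.61, 7.32 and 6.98 in sham replicates 1 to 4 and 7.52, 7.88, 7.80 and 7.92 in BCAS. With sham replicates 1 and 3 alone no member passed and the median was 0.18, and against the sham libraries of other days it was -0.04.

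Of 77 nuclear genes of oxidative phosphorylation 6 rose (7.79%, beside 1.64% of all genes tested) and none fell, with a median of 0.26 (0.13 under quantile normalisation). Against the sham libraries of other days that median was -0.08. The complex I subunit genes Ndufv3 and Ndufa3 rose by 0.47 ± 0.11 and 0.62 ± 0.16, and the cytochrome oxidase gene Cox5b by 0.49 ± 0.13. Ndufa3 was at 118, 70.5, 80.3 and 36.1 FPKM in sham and 87.6, 123, 110.3 and 116 FPKM in BCAS, so that sham replicate 1 was inside the BCAS range and replicate 4 far below it. Of 77 mitochondrial ribosome genes 4 rose (5.19%, median 0.16), among them Mrpl40 (0.35 ± 0.089), Mrps24 (0.40 ± 0.11) and Mrps11 (0.50 ± 0.13). Of 34 proteasome genes 3 rose (8.82%, median 0.14), namely Psma7 (0.31 ± 0.074), the immunoproteasome gene Psmb8 (0.49 ± 0.13) and Psmb5 (0.34 ± 0.099). Of 21 histone genes 3 rose (14.3%), H1fx, H3f3b (0.33 ± 0.094) and Hist3h2a (0.39 ± 0.11), and none fell. With sham replicates 1 and 3 alone H1fx was the single call left in these lists.

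Among genes of 300 bases or more, the direction of the difference went with gene length. The median log2 difference was 0.14 over 1807 genes of 300 to 1000 bases and 0.13 over 1943 genes of 1000 to 2000 bases. It was 0.07 from 2000 to 3000, 0.01 from 3000 to 5000, and -0.06 over 5021 genes of 5000 bases or more. The 1101 genes under 300 bases lay outside this order, with a median of 0.01, rises in 0.545% and falls in 0.908%. Rises made up 4.17% of genes of 1000 to 2000 bases and 0.319% of the longest, and falls 0.154% and 1.93%. The size of this trend followed the control. From 1000 to 2000 bases the median was 0.34 against sham replicate 4, 0.12 against replicate 2, 0.07 against replicate 3 and -0.03 against replicate 1, and it was -0.02 against the sham libraries of other days. The median lengths of the ribosomal and oxidative phosphorylation genes tested were 1739 and 1718 bases. Sham replicates 4 and 2, with the steepest trends, also had the fewest fragments and the highest share in genes under 300 bases, and the part of these in the trend was not tested.

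**Figure D4:**
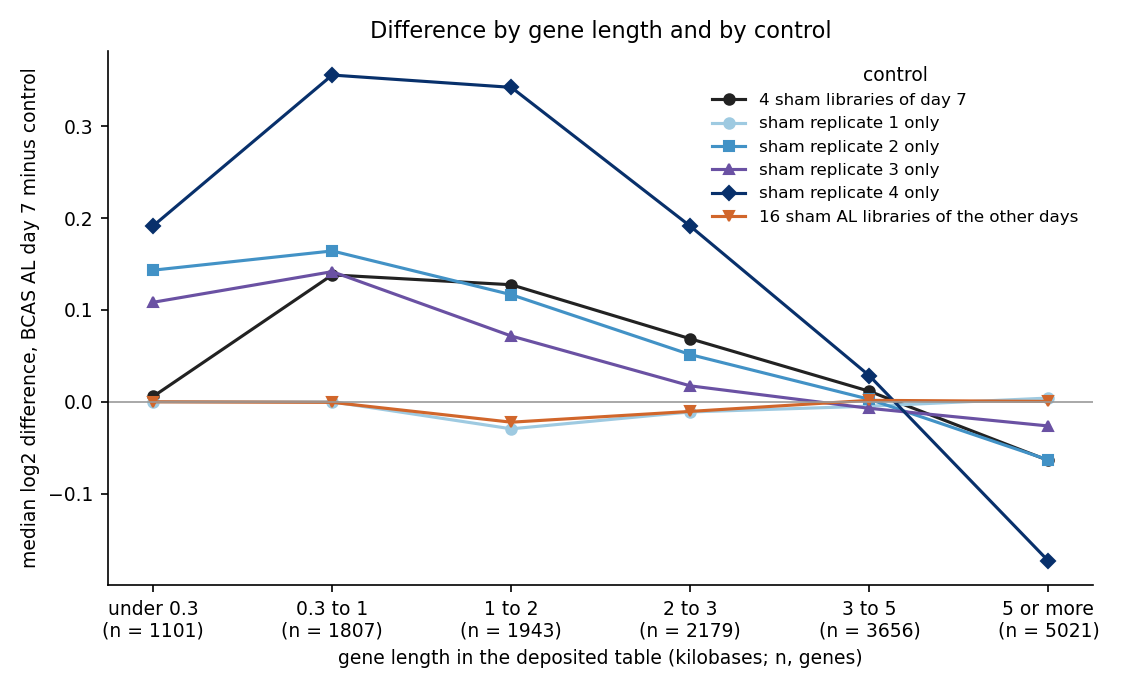
Median log2 difference between BCAS AL libraries of day 7 and each control, over genes grouped by length in kilobases. Against sham replicate 4 the median is 0.19 for genes under 0.3 kilobases and runs from 0.36 for genes of 0.3 to 1 kilobases to -0.17 for the longest. Against sham replicate 1 and the sham libraries of other days the lines stay within 0.03 of 0.

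A few neuronal and oligodendrocyte genes fell, and the differences were negative in 13 of 14 neuronal and 9 of 11 oligodendrocyte markers. Sham replicate 3 was the highest library for both lists. The neurofilament genes Nefl, Nefm and Nefh fell by 0.95 ± 0.27, 0.64 ± 0.17 and 0.81 ± 0.20, the 3 calls among 14 neuronal markers (median -0.37). Over all genes tested 0.987% were called lower, and the median difference was 0.01. Nefl was at 2.54, 0.816, 5.04 and 1.27 FPKM in sham replicates 1 to 4 and at 0.481, 0.432, 1.30 and 0.307 FPKM in BCAS replicates 1 to 4, and sham replicates 2 and 4 lay inside the BCAS range. The call of Nefl was lost without sham replicate 3 or 4 or BCAS replicate 1, 2 or 4, and with sham replicates 1 and 3 alone it fell by 1.54 (adjusted p = 0.00386). The median of 11 oligodendrocyte markers was -0.78, and 1 of them passed. Mbp, the myelin basic protein gene, was at 24.4, 6.61, 78.1 and 12.04 FPKM in sham and 6.79, 3.29, 10.9 and 4.84 FPKM in BCAS (adjusted p = 0.0824). The mean log2(FPKM + 1) of the oligodendrocyte list was 3.17, 2.37, 3.97 and 2.98 in sham replicates 1 to 4, 2.15 to 2.62 in BCAS and 1.85 to 2.77 in the sham libraries of other days, so sham replicates 1, 3 and 4 lay above both ranges. With sham replicates 1 and 3 alone, 6 of the 11 oligodendrocyte and 4 of the 14 neuronal markers were called lower. Over all 15707 genes tested, 52 were called lower in that fit. For the neuronal list the mean log2(FPKM + 1) was 2.05, 1.23, 2.13 and 1.59 in sham and 1.18 to 1.56 in BCAS. In the sham libraries of other days it was 1.11 to 1.78.

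Some genes outside these lists, or named for other reasons, fell with every sham library above every BCAS library, and Kif1a, Rph3a, Hapln2 and Cdk5r2 among them were chosen after their values were seen. Sez6l2, a membrane protein of neurons, was at 3.34, 1.61, 4.57 and 2.31 FPKM in sham and 0.977, 0.509, 1.13 and 0.963 FPKM in BCAS and fell by 1.02 ± 0.26 (adjusted p = 0.0241). Kif1a, the motor of synaptic vesicle precursors, fell by 0.51 ± 0.11 with 3.68, 2.36, 4.18 and 2.57 FPKM in sham and 1.57, 1.85, 2.31 and 1.94 FPKM in BCAS. It was called with sham replicates 1 and 3 alone (-0.76, adjusted p = 6.1e-05), without any 1 of the 8 libraries, and against the sham libraries of other days (-0.39, adjusted p = 0.00384). The kinase gene Aatk (-0.54 ± 0.11), Cdk5r2, the p39 activator of Cdk5 (-0.78 ± 0.19), the synaptic Rph3a (-0.85 ± 0.19) and Hapln2, a matrix link protein of nodes of Ranvier (-0.96 ± 0.21), fell and were called with sham replicates 1 and 3 alone, but not against the sham libraries of other days. None of 10 astrocyte markers passed (median -0.12), with Gfap at 34.7, 42.2, 67.1 and 59.0 FPKM in sham and 45.4, 35.3, 43.0 and 46.1 FPKM in BCAS. Whether the amount of attached brain tissue differed, and its part in these falls, was not tested.

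**Figure D5:**
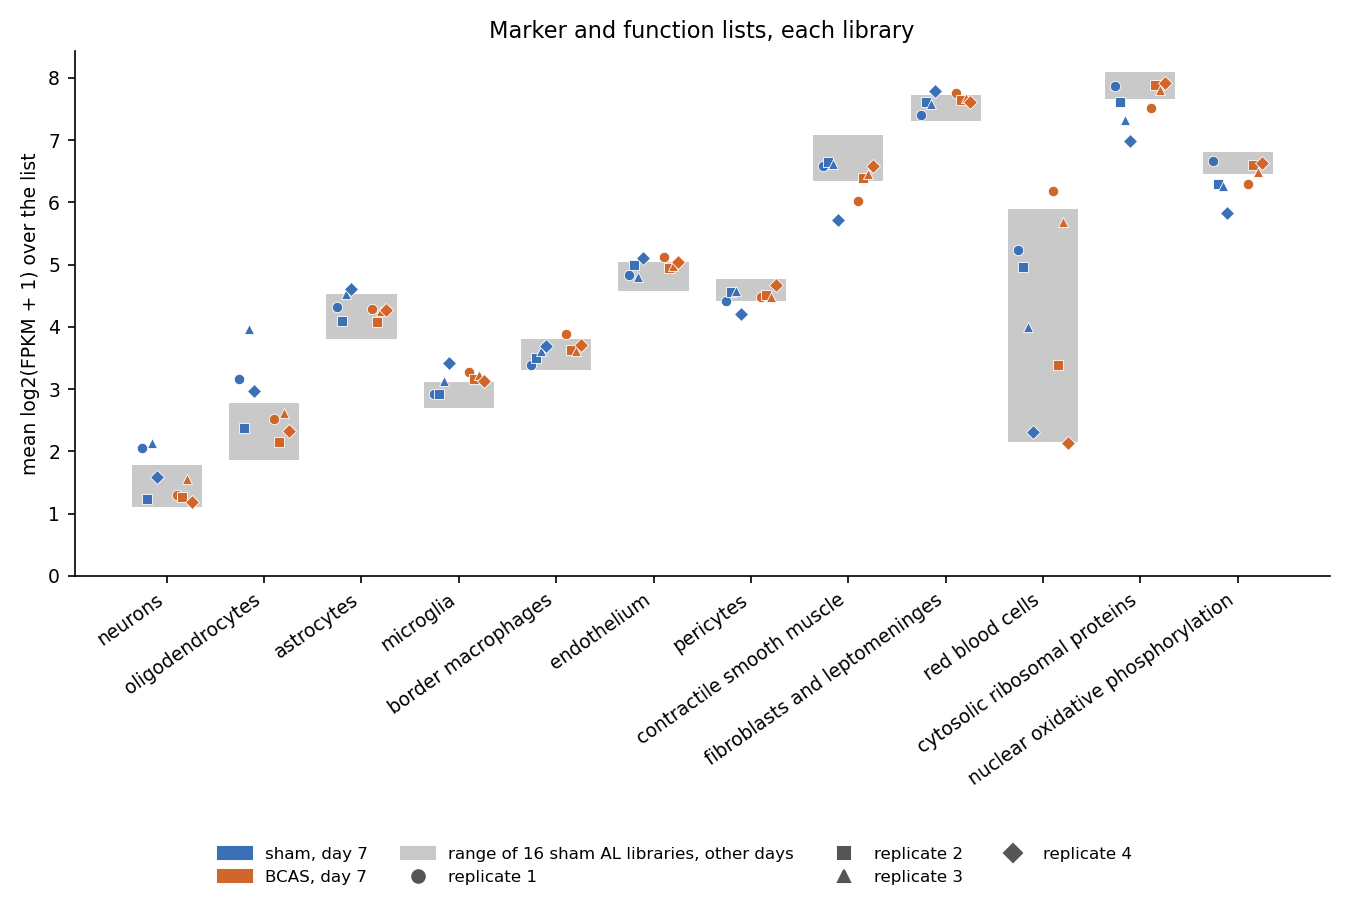
Mean log2(FPKM + 1) of the measured members of 12 lists in each library, with sham (blue) and BCAS (orange) libraries of day 7 shaped by replicate and the range of the 16 sham AL libraries of other days as a grey box. Sham replicates 1 and 3 are high for neurons and oligodendrocytes, and sham replicate 4 is low for smooth muscle, ribosomal proteins and oxidative phosphorylation.

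Few genes of the artery wall passed. None of 16 endothelial genes passed (median 0.05), with Egfl7 nearest (0.33 ± 0.13, adjusted p = 0.117) and Cldn5, the tight junction claudin of the blood-brain barrier, at 367, 420.0, 326 and 374 FPKM in sham and 491, 462, 434 and 546 FPKM in BCAS (adjusted p = 0.127). Pecam1 differed by 0.04 ± 0.13 (adjusted p = 0.891) and Nos3, the endothelial nitric oxide synthase gene, by 0.05 ± 0.14 (adjusted p = 0.875). None of 12 arterial endothelial genes passed (median 0.02). Gkn3, which marks arterial endothelium of the brain, was at 181, 163, 157 and 145 FPKM in sham and 299, 198, 221 and 305 FPKM in BCAS; it missed the threshold here (adjusted p = 0.174) and passed against the sham libraries of other days (0.81, adjusted p = 0.0293). Angpt2 was the 1 rise among both 12 flow-responsive endothelial genes and 17 angiogenesis genes, with medians of -0.04 and 0.02. Angpt2, a vessel-destabilising ligand of Tie2, was at 14.2, 11.5, 12.2 and 12.9 FPKM in sham and 15.3, 17.0, 17.0 and 18.1 FPKM in BCAS, a rise of 0.38 ± 0.092 (adjusted p = 0.0155). Klf2, which laminar flow induces, differed by -0.11 ± 0.22 (adjusted p = 0.832), and none of 17 barrier genes passed (median 0.08).

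None of 18 contractile smooth muscle genes passed (median 0.00). Myh11, the smooth muscle myosin gene, was at 364, 375, 356 and 147 FPKM in sham and 203, 279, 300.2 and 349 FPKM in BCAS, and sham replicate 4 was low for it as for Acta2. Without sham replicates 2 and 4 the list median was -0.25, and against the sham libraries of other days it was -0.43, with 6 of the 18 genes lower. Myh11 was one of these (-0.60, adjusted p = 0.00836), as was Myocd, the coactivator that drives contractile genes (-0.63, adjusted p = 0.00168). Over all 15707 genes tested, 277 were lower against that control. The sham group of day 7 was also below the sham groups of other days, with a list median of -0.44. The mean log2(FPKM + 1) of the list was 5.72 in sham replicate 4, 6.02 in BCAS replicate 1 and at least 6.33 in the sham libraries of other days. Srf, the transcription factor that Myocd binds, fell on day 7 by 0.42 ± 0.11 with 16.3, 17.6, 14.0 and 14.2 FPKM in sham and 11.1, 12.5, 12.1 and 9.74 FPKM in BCAS, and by 0.40 against the sham libraries of other days (adjusted p = 0.00503). Mef2d (-0.39 ± 0.10), Lsmem2 (-1.01 ± 0.28) and Dst (-0.44 ± 0.11) did the same, and these 4 were chosen after their values were seen. None of 10 pericyte genes (median 0.06), 17 vasoactive genes (0.01), 14 fibroblast and leptomeningeal genes (0.10) or 5 red blood cell genes (0.28) passed. Summed over the red blood cell list, FPKM was 493, 402, 166 and 34.6 in sham replicates 1 to 4. In BCAS replicates 1 to 4 it was 963, 99.3, 693 and 32.7.

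Matrix, growth factor, sterol and cell cycle lists had at most 2 calls each. Sparc, a matricellular protein of the basement membrane list, rose by 0.25 ± 0.067 with 339, 347, 321 and 338 FPKM in sham and 396, 401, 418 and 381 FPKM in BCAS, 1 of 15 (median -0.05). Efemp2, an elastic fibre protein, rose by 0.29 ± 0.079, 1 of 16 (median 0.05). Tgfb1 rose by 0.37 ± 0.10 and Skil, a repressor of TGF-β signalling, fell by 0.31 ± 0.087, the 2 calls among 18 genes of that pathway (median -0.08). None of 17 collagen genes (median -0.02) or 15 metalloproteases and inhibitors (0.01) passed. Ebp, a sterol isomerase of cholesterol synthesis, was at 21.6, 18.5, 21.0 and 17.2 FPKM in sham and 25.4, 27.4, 23.6 and 26.5 FPKM in BCAS and rose by 0.38 ± 0.076 (adjusted p = 0.00336), the 1 call of 21 in that list (median -0.03); it held without any 1 of the 8 libraries but not with sham replicates 1 and 3 alone (adjusted p = 0.192). Ccnb2, a mitotic cyclin, rose by 0.64 ± 0.18 with 0.487, 0.419, 0.599 and 0.680 FPKM in sham and 2.41, 1.52, 1.71 and 0.452 FPKM in BCAS, 1 of 7 cell cycle genes, and did so against the sham libraries of other days as well (0.67, adjusted p = 0.00403).

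Stress and metabolic lists gave 1 call in all. Chordc1, a cochaperone of Hsp90, fell by 0.40 ± 0.12, the 1 call among 15 heat shock genes, whose median was -0.38 with 14 negative differences. Its call was lost whichever of the 8 libraries was left out. None passed among 15 hypoxia genes (median 0.08), 14 endoplasmic reticulum stress genes (-0.02), 15 immediate early genes (-0.16), 19 clock genes (-0.12), 11 glucocorticoid-responsive genes (-0.11), 16 fatty acid oxidation genes (0.03), 16 antioxidant genes (0.09) and 11 p53 targets (-0.03). Hif1a and Vegfa, the core of the hypoxia response, differed by -0.07 ± 0.089 and -0.09 ± 0.12 (adjusted p = 0.706 and 0.723). None passed either among 4 choroid plexus, 5 pituitary and 4 skeletal muscle genes (medians 0.18, -0.48 and 0.00). Summed over the pituitary hormone list, FPKM was 113, 1039, 83.5 and 33.6 in sham replicates 1 to 4. In BCAS replicates 1 to 4 it was 55.0, 198, 162 and 110. Of 3 small nuclear and signal recognition RNAs tested Rn7sk was the 1 call. The 5 tested members of the list headed rRNA-like and satellite-like loci were called lower (CT010467.1, Gm26917, Lars2, Gm10800 and Gm21738). That list was chosen with earlier results of these data known. Its member Lars2 is the synthetase gene described above, with 0.923% of its 31-base words in GENCODE M21 transcripts of other genes. Only those transcripts were searched, so this share cannot show where the fragments counted at Lars2 came from. Gm10800 and Gm21738 lost their calls without sham replicate 4.

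The 16 sham libraries of other days gave a second control for the same 4 BCAS libraries. Against them 394 genes passed (2.51% of genes tested), 117 higher and 277 lower, and 28 of the 413 were among these in the same direction, 10 higher and 18 lower. Besides those already named they included the falls of Gnao1 (-0.28 ± 0.081), the G protein subunit abundant in neurons, Obsl1 (-0.25 ± 0.07) and Trak2 (-0.29 ± 0.071), and the rises of Hfe (0.31 ± 0.078), an iron regulator, Gmnn (0.65 ± 0.16), which limits DNA replication licensing, and Selenbp1 (0.29 ± 0.085). The BCAS mean lay inside the range of those 16 libraries for 240 of the 258 rises and 145 of the 155 falls, and the sham mean of day 7 for 94 and 75. Over all genes tested these shares were 95.8% for BCAS and 87.0% for sham. The sham group of day 7 differed from the sham groups of other days in 2980 genes, 19% of those tested, a comparison that shares its 4 libraries with the main one.

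Under fasting, where other libraries served as control, BCAS on day 7 gave 24 genes, 17 higher and 7 lower. The difference between the diets was tested directly and passed for 5 genes (0.0318% of genes tested). Malat1 differed by -2.07 ± 0.24 (adjusted p = 8.11e-08), with 17.7 to 24.1 FPKM in the IF sham and 17.1 to 39.7 FPKM in the IF BCAS libraries. Those IF ranges are close to the AL BCAS values and below the AL sham values. CT010467.1 differed by -3.55 (adjusted p = 0.0479), and Cdc73, of the Paf1 elongation complex, by -0.39 ± 0.074, with 2.40, 2.94, 2.36 and 2.71 FPKM in sham and 2.03, 1.90, 2.10 and 2.02 FPKM in BCAS under AL. Myc, the growth-promoting transcription factor, differed by -0.94 ± 0.19 (adjusted p = 0.0237): it was at 2.33, 2.50, 3.15 and 2.68 FPKM in sham and 1.64, 2.20, 1.73 and 2.09 FPKM in BCAS under AL, where it did not pass (adjusted p = 0.124), and rose under IF by 0.61 ± 0.14 (adjusted p = 0.0368). Dync1li2, a dynein light intermediate chain gene, was the fifth (-0.42 ± 0.089, adjusted p = 0.0464).

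The BCAS difference of day 7 departed from the mean of the other 4 AL days for 88 genes (0.56% of genes tested), 49 higher and 39 lower. The 5 smallest p-values were those of Malat1 (-1.70 ± 0.19, adjusted p = 6.31e-09), CT010467.1 (-4.36), Lars2 (-2.98), Rn7sk (-5.43) and Gm23935 (-3.26). In the BCAS AL libraries of other days CT010467.1, Lars2, Rn7sk and Gm23935 reached 1140, 55.0, 54.6 and 38448 FPKM. Their medians there were 33.6, 3.62, 1.81 and 2358 FPKM. BCAS AL day 1 replicate 2 held 0.279% of fragments in genes under 300 bases, and its part in these differences was not tested. H1fx (0.76 ± 0.17, adjusted p = 0.0197), Degs1 (0.26 ± 0.051) and Leprot (0.20 ± 0.048) also differed in size from the other days. Acsl5, Klk10 and Kif1a were not among those that passed (adjusted p = 0.0544, 0.328 and 0.0589), which does not show that their differences were alike on all days. Without sham replicates 2 and 4 the count was 42, and with limma array weights 19.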

How the data were processed

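RNA was sequenced from cerebral arteries, per the labels' protocols after extraction with the RNeasy mini kit. The authors deposited 1 table of FPKM (fragments per kilobase of gene, scaled to depth) for 54532 genes in 78 libraries, per the file headers. The submitters' processing notes name DESeq 1.10.1 without a role, while aligner, build and strand setting are not given in the sources used here. Gene IDs and coordinates were matched to GENCODE M21 on GRCm38. FPKM times length came out as whole multiples of a step, within 0.05, for all values under 1000 fragments, which gave each library's depth and fragments. These were 14601572 to 22010857 fragments in the 8 libraries compared.

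The 15707 genes that reached 1 FPKM in 3 or more libraries were tested on log2(FPKM + 1) with limma 3.58.1 in R 4.3.3, with a trended, robust variance, 1 model over all 78 libraries in 20 groups, and Benjamini-Hochberg adjustment over all genes. All adjusted p-values come from this model or a named alternative of it, a change is significant at an adjusted p under 0.05, and fold changes on this scale understate those of low genes. Replicates are numbered in accession order and pair no samples. The script was tested on simulated data. The members and gene lists were chosen with earlier results of these data known.

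Named were, among called genes with no overlap between the groups and a group mean of at least 1 FPKM, the 10 largest rises and falls. Also named were the 10 smallest p among genes called in both parts of the sham group (replicates 1 and 3, replicates 2 and 4), up to 3 called members of each list or its member of smallest p, 2 whole lists (rRNA-like loci and genes responsive to stenosis across days), 11 panel genes and the 5 smallest p of each difference contrast. Alternatives changed the pseudocount to 0.1, the filter, the normalisation, the weights, the samples fitted and the controls, and limma-voom was run on the recovered fragments. Each sham library as the single control was added after seeing the data. No column was left unmapped (0). Some named genes are not reported here.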

Additional observations from a re-analysis of the deposited data

Results flagged for a closer look

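A library stood apart from the other 3 of its group by Dixon's gap (past its 95% critical value) in 16 of the 216 groups of values examined, and chance gives about 1 in 20. Sham replicate 4 was the low library for the smooth muscle genes Acta2 (1757 FPKM) and Myh11 (147 FPKM), for Fbxl22 (12.5 FPKM), for Ptp4a3 (10.3 FPKM) and for the mitochondrial ribosome gene Mrps11 (3.44 FPKM). Sham replicate 3 was the high one for the potassium channel gene Kcnj8 (4.68 FPKM). Among the BCAS libraries, replicate 1 was low for Fbxl22 (11.2 FPKM) and for Etfb of fatty acid oxidation (15.98 FPKM), and replicate 4 was low for Lars2 (2.61 FPKM). Replicate 2 was high for Gm5425 (35.1 FPKM) and Il1b (0.741 FPKM). Replicate 3 was high for Nefm (0.274 FPKM), the endothelin receptor gene Ednrb (2.00 FPKM) and Hif1a (16.5 FPKM), and replicate 4 for Mir378b (0.537 FPKM) and Ly6g (0.420 FPKM), with the other 3 libraries at 0 for both.

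The BCAS difference on day 7 was lower under free feeding than under fasting, by the limma test of that difference, for CT010467.1 (-3.55), Malat1 (-2.07), Myc (-0.94), Dync1li2 (-0.42) and Cdc73 (-0.39).

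The same kind of test set day 7 against the mean of the other AL days. Non-coding loci lower on day 7 were Rn7sk (-5.43), CT010467.1 (-4.36), Gm23935 (-3.26), Gm24270 (-3.03), Malat1 (-1.70), Gm26917 (-1.60), Mir378b (-1.33) and mt-Rnr2 (-0.84). The protein-coding genes lower on day 7 were Gm10800 (-5.22), Lars2 (-2.98), Aatk (-0.53) and Cdc73 (-0.27). Low or copied transcripts were higher on day 7, namely Gm15972 (1.43), Gm25982 (1.40), Pebp4 (1.08) and Gm5425 (1.07). So were H1fx (0.76), Rps13 (0.58), Cd68 (0.58), Ndufv3 (0.51), Ebp (0.41), Degs1 (0.26) and Leprot (0.20). The day 7 sham libraries enter all of these differences, and so do the BCAS AL libraries of other days.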

How the results depend on the processing

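The count of 413 genes was within 1.5 times under pseudocount 0.1 (438), no filter (551, turned to 222 higher and 329 lower, with 290 of the 413 kept), the filter at 5 FPKM (453), median-ratio size factors (413), quantile normalisation (419), limma-voom on fragments (329) and the sham libraries of other days as control (394, of which 28 were among the 413). It moved to 0 with only the 8 libraries fitted, where the spread came from these libraries alone. The count was 23 with array weights, 72 without sham replicates 2 and 4 together, and 3049 with those 2 as the only controls. Leaving out 1 library gave 45 (BCAS replicate 2) to 1750 (sham replicate 1). The single sham controls added after seeing the data gave 18, 341, 125 and 4858 for replicates 1 to 4. The diet difference (5 genes) became 19 with no filter and 23 with array weights, and the difference between day 7 and other days (88) became 181, 19 with weights and 42 without sham replicates 2 and 4. The causes of these changes in count were not tested.

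Of the 59 called genes named by rule, 11 changed sign against the sham libraries of other days: Gm26917 (0.18), Mir378b (0.16), Rps13 (-0.044), Rps16 (-0.021), Ndufv3 (-0.0090), Ndufa3 (-0.10), Cox5b (-0.075), Mrps11 (-0.070), Mrps24 (-0.094), Psmb5 (-0.062) and Efemp2 (-0.014). Against sham replicate 1 alone Ndufa3 (-0.12), Cox5b (-0.10), Mrps24 (-0.17), Psmb5 (-0.019) and Gm21738 (0.050) did, against replicate 2 alone Gm21738 (0.050) and Nefm (0.056), and against replicate 4 alone Mir378b (0.16). Myh11, not called, was 0.91 against replicate 4 alone. No paired analysis was possible because the labels carry no replicate numbers. Low transcripts such as Gm25982 and Mir378b rest on few fragments, where depth limits the values.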
